A study of Mus musculus with 12 samples.

Results

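The near neighbours of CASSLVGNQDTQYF are the productive TCRβ CDR3 amino acid (AA) sequences of 14 residues that differ from it at exactly 1 or 2 positions. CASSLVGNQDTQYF, called the reference CDR3 here, was itself chosen for its abundance in CX3CR1+ cells and CD8 TILs of these same libraries, where it also has the highest minimum share of any CDR3 over those 6 libraries. Its own values are therefore a description. The search found 355 neighbours, 34 with 1 difference and 321 with 2 differences, among 39788 productive CDR3s of 14 residues and 139710 productive CDR3s in all. They accounted for 814 nucleotide rearrangements and 3728 templates, a template being a single rearranged TCRβ gene copy as counted by the assay.

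The 12 libraries came from 3 independent experiments, named A, B and C here. In each, genomic DNA was sequenced from a CX3CR1+, a CD27lo CX3CR1- and a CD27hi CX3CR1- subset of CD8+ T cells of the spleen and from CD8+ tumor-infiltrating lymphocytes (CD8 TILs), taken from female C57BL/6 mice bearing MC38 tumors, which are grown from a mouse colon adenocarcinoma line. All mice had received anti-CTLA-4 Ab and anti-PD-L1 Ab, so that no untreated group stands beside these values, and the ages of the mice are not given in the labels. The labels write CX3CR1 lo and hi for the subsets called CX3CR1- and CX3CR1+ here. Splenic subsets were sorted by flow cytometry and CD8 TILs were positively selected on CD8α, each library being taken as a pool of mice of its experiment. TCRβ sequences hold no marker genes, so that the sorted identities could not be checked against CD27 or CX3CR1. Productive templates ranged from 18180 to 21622 in CD27lo CX3CR1-, 49116 to 71574 in CD27hi CX3CR1-, 50994 to 113660 in CX3CR1+ and 5893 to 20951 in CD8 TIL libraries. The CD8 TIL library of experiment A was the shallowest.

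The TCRβ CDR3 is the loop that lies over the peptide held by an MHC molecule. It runs from a conserved cysteine at the end of the V gene to a phenylalanine in the J gene, and its middle is made of the D gene and of nucleotides inserted at random at the joints. The same AA sequence can therefore arise from several nucleotide rearrangements, and CDR3s that are easy to make recur in unrelated mice, where they are called public. T cells of a clone share the same rearrangement, so that a CDR3 with many templates from 1 rearrangement marks an expanded clone or, in pooled mice, a few of them. CX3CR1, a chemokine receptor, marks differentiated effector CD8+ T cells, and CD27, a costimulatory receptor, is lost as CD8+ T cells differentiate.

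The CDR3 nucleotides of a selection of rearrangements of the reference CDR3 and of its 3 most abundant neighbours are given first, because they show that the abundant neighbours were separate rearrangements and how few bases set them apart from the reference CDR3. Each is the coding strand from the first base of the cysteine codon over 39 bases, since the deposited reads end before the codon of the last residue. Capitals mark bases that differ from the most abundant rearrangement of the reference CDR3. Substitutions in the text give the residue of the reference CDR3, the position counted from 1 at the cysteine, and the residue of the neighbour.
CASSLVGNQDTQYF, 3797 templates, TCRBV12-01: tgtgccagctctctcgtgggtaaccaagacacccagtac
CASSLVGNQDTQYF, 1160 templates, TCRBV12-01: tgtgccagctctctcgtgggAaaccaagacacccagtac
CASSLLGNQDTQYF, 660 templates, TCRBV12-01: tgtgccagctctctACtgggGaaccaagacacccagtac
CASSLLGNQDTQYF, 572 templates, TCRBV12-01: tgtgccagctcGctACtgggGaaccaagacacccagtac
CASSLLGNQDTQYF, 262 templates, TCRBV12-01: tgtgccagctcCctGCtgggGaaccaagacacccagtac
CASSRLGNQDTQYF, 623 templates, TCRBV12-01: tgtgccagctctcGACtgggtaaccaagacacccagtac
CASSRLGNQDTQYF, 15 templates, TCRBV14-01: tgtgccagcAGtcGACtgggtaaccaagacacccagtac
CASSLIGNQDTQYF, 394 templates, TCRBV12-01: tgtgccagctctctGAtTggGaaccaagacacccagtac

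Near neighbours took a larger share of CX3CR1+ T cells than of the CX3CR1- subsets in all 3 experiments, and most of that share lay in a single CDR3 per experiment. In CX3CR1+ libraries they made up 1.20% of the productive templates of experiment A, 1.26% of experiment B and 1.15% of experiment C. The 95% Wilson confidence intervals, which cover counting error only, were 1.12% to 1.30%, 1.17% to 1.37% and 1.09% to 1.22%. In CD27lo CX3CR1- libraries the shares were 0.403%, 0.501% and 0.351%, and in CD27hi CX3CR1- libraries 0.361%, 0.379% and 0.288%. The highest CX3CR1- library thus lay below the lowest CX3CR1+ library, and the groups did not overlap. Within experiments, CX3CR1+ cells exceeded the mean of both CX3CR1- subsets by 0.828 percentage points ± 0.00629 (SD, n = 3). CD27lo exceeded CD27hi CX3CR1- cells by 0.0756 percentage points ± 0.0416 (SD, n = 3), with a higher value in 3 of 3 experiments. No p-value is given for these sums, because the members were chosen with results of these data known.

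CD8 TILs spread more widely, with 0.119%, 1.14% and 0.587% in experiments A, B and C. Their confidence intervals ran from 0.0576% to 0.245%, from 0.966% to 1.34% and from 0.492% to 0.700%. The library of experiment A lay below every splenic library, while those of experiments B and C lay above every CX3CR1- library. Relative to the averaged CX3CR1- subsets, the share in CD8 TILs was higher by 0.234 percentage points ± 0.482 (SD, n = 3), higher in 2 of 3 experiments, so that the difference was smaller than its spread. Without experiment B the mean difference was 0.00208 percentage points. Compared with CX3CR1+ cells, CD8 TILs were lower by a mean of 0.593 percentage points, with an SD of 0.480 and a lower value in 3 of 3 experiments.

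**Figure D1:**
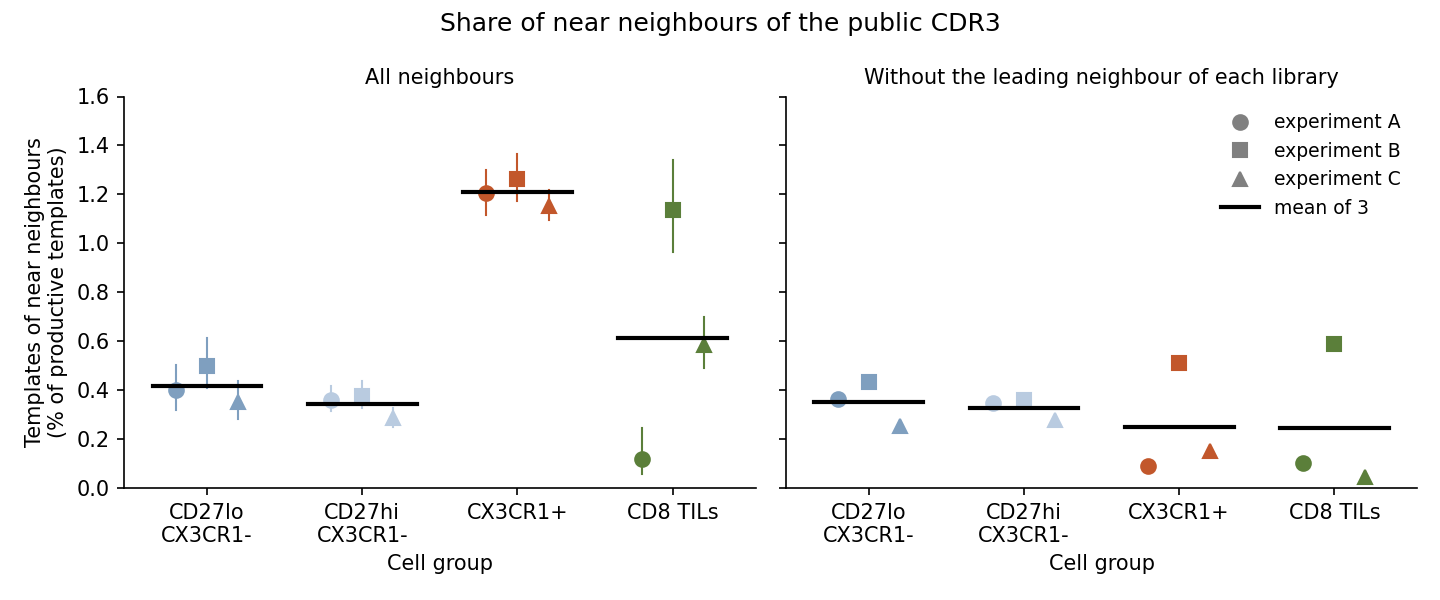
Share of productive templates (%) taken by near neighbours in the 12 libraries by cell group, with 95% Wilson intervals of counting error in the left panel and, in the right panel, the same share without the most abundant neighbour of each library. Points are experiments A, B and C and lines are means of 3. The CX3CR1+ libraries lie between 1.15% and 1.26% on the left and between 0.0896% and 0.510% on the right.

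A single neighbour led each CX3CR1+ library. It was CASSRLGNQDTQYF (L5R V6L) in experiment A, with 622 templates or 92.6% of the neighbour templates. In experiment B it was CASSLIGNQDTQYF (V6I), with 385 templates or 59.7%, and in experiment C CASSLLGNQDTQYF (V6L), with 1139 templates or 86.8%. Leaving out the leading neighbour of each library reduced the CX3CR1+ shares to 0.0896%, 0.510% and 0.152%, and turned the difference from the CX3CR1- subsets to a mean of -0.0894 percentage points. With an SD of 0.190 and a higher value in 1 of 3 experiments, that mean lay within its spread. In experiment B the CX3CR1+ library stayed above the CX3CR1- libraries, beside 0.435% in CD27lo and 0.360% in CD27hi CX3CR1- cells without their leaders. It lay below the CD8 TIL library of that experiment, which held 0.589% without its leader. In CD27hi CX3CR1- libraries the leader held from 2.91% to 4.84% of the neighbour templates, and in CD27lo CX3CR1- libraries from 9.46% to 27.6%. The median neighbour had 1 template in 11 of the 12 libraries and 2 in the CD8 TIL library of experiment B.

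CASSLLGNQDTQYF, which carries leucine at position 6, was the most abundant neighbour over the 12 libraries and was found in 9 of them. Its templates in experiments A, B and C numbered 0, 210 and 1139 in CX3CR1+ cells, 0, 52 and 113 in CD8 TILs, 1, 0 and 21 in CD27lo CX3CR1- cells and 1, 3 and 1 in CD27hi CX3CR1- cells. These correspond to 0.412% and 1.00% of productive templates of CX3CR1+ cells, and to 0.420% and 0.539% of CD8 TILs, in experiments B and C. Experiment A stood apart: 0 of 55776 templates in CX3CR1+ cells allows a share of up to 0.00538%, and 0 of 5893 in CD8 TILs a share of up to 0.0509%. In CX3CR1+ cells of experiment C, where it ranked 10 by abundance, a pair of rearrangements with 549 and 551 templates held nearly equal parts of it. They differ from each other at 1 nucleotide, and in CD8 TILs of that experiment they had 92 and 20 templates. A separate rearrangement, also of TCRBV12-01, made 209 of the templates in CX3CR1+ cells and all 52 in CD8 TILs of experiment B. Each of these 3 rearrangements was seen in 1 experiment only.

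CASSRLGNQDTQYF, with arginine and leucine at positions 5 and 6, had 622, 14 and 0 templates in CX3CR1+ cells of experiments A, B and C. It had 7, 0 and 0 templates in CD27lo CX3CR1- cells, 3, 2 and 3 in CD27hi CX3CR1- cells and 0, 0 and 2 in CD8 TILs. In experiment A it took 1.12% of CX3CR1+ templates and ranked 16, yet it was at 0 in the CD8 TILs of that experiment. The rearrangement behind 613 of the 622 templates, of TCRBV12-01, was seen only in experiment A. The 14 templates of experiment B came from another rearrangement, of TCRBV14-01, which was also seen once in CD27hi CX3CR1- cells of experiment C.

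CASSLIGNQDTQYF, with isoleucine at position 6, was found in experiment B alone. It had 385 templates in CX3CR1+ cells, 15 in CD8 TILs, 12 in CD27lo CX3CR1- cells and 3 in CD27hi CX3CR1- cells. The main rearrangement held 381 of the CX3CR1+ templates and none of the CD8 TIL templates. All 15 CD8 TIL templates belonged to another rearrangement, which had 2 templates in CX3CR1+ and 2 in CD27lo CX3CR1- cells.

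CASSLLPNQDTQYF (V6L G7P), with proline at position 7, was the leading neighbour of CD8 TILs in experiment B. It had 68 templates there, 48.2% of the neighbour templates, against 3 in CX3CR1+ cells of the same experiment and 0 in the other 10 libraries. It came from 1 rearrangement, of TCRBV12-02.

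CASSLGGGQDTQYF (V6G N8G) had 37 templates in CX3CR1+ cells of experiment C, and from 0 to 9 in every other library. It had the most rearrangements of any neighbour, 24, in 9 V genes. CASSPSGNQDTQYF (L5P V6S) had 77 templates in CX3CR1+ cells of experiment C, all from 1 rearrangement, and 0 to 2 elsewhere. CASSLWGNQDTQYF (V6W), with tryptophan at position 6, had 10 and 15 templates in CX3CR1+ cells of experiments A and C and 0 in experiment B, beside 1 and 2 in CD27hi CX3CR1- cells of experiments A and B.

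Other neighbours were found at low counts, mostly in CX3CR1- cells. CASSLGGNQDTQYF (V6G), which carries glycine at position 6, had 2, 3 and 1 templates in CD27lo CX3CR1- cells, 7, 1 and 4 in CD27hi CX3CR1- cells, and 1 in CD8 TILs of experiment A, but 0 in each CX3CR1+ library. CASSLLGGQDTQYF (V6L N8G) was likewise at 0 in each CX3CR1+ library, against 4, 2 and 6 templates in CD27hi CX3CR1- cells. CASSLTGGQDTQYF (V6T N8G) had 6, 5 and 1 templates in CX3CR1+ cells and 8, 4 and 3 in CD27hi CX3CR1- cells. It was the only neighbour detected in all 3 CX3CR1+ libraries. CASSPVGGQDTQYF (L5P N8G) had 1 template in CD8 TILs of experiments A and C and 1 in CD27lo CX3CR1- cells of experiment C. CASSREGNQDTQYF (L5R V6E), of TCRBV17-01, was confined to experiment B, with 7 templates in CD27lo CX3CR1-, 2 in CD27hi CX3CR1- and 4 in CX3CR1+ cells.

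Across all 355 neighbours, 170 had a single template in the whole series and 197 were found in 1 library. The 3 with at least 100 templates, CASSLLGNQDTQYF, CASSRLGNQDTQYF and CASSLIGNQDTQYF, held 70.0% of the 3728 neighbour templates. Neighbours averaged from 29.2 to 36.4 templates per CDR3 in CX3CR1+ libraries, against 7.72 to 12.9 for all CDR3s of 14 residues there. In CX3CR1- libraries the neighbours averaged 1.28 to 1.73 templates, against 1.51 to 1.59 for all CDR3s of that length.

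From 120 to 147 different neighbours were detected in CD27hi CX3CR1- libraries, 44 to 59 in CD27lo CX3CR1-, 19 to 36 in CX3CR1+ and 7 to 9 in CD8 TILs. Expected at the depth of the shallowest library, 5893 templates, they averaged 19.0 and 19.8 in the CD27hi and CD27lo subsets, 5.67 in CX3CR1+ cells and 5.35 in CD8 TILs. As a part of all different CDR3s of 14 residues, neighbours were 1.14% to 1.17% in CX3CR1+ libraries, 1.08% to 1.23% in CD27hi CX3CR1-, 1.04% to 1.64% in CD27lo CX3CR1- and 1.41% to 1.82% in CD8 TILs.

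Separating the neighbours by their number of differences showed that the CX3CR1+ share moved between the classes from experiment to experiment. The 34 CDR3s with 1 difference made 0.0197%, 1.17% and 1.02% of CX3CR1+ templates in experiments A, B and C, and those with 2 differences 1.19%, 0.0941% and 0.134%. In CD8 TILs the shares were 0.0170%, 0.541% and 0.539% with 1 difference, and 0.102%, 0.597% and 0.0477% with 2. Neither class alone was higher in CX3CR1+ cells than in the CX3CR1- subsets in all experiments: this held in 2 of 3 experiments for 1 difference and in 1 of 3 for 2 differences. CDR3s just outside the rule, with 3 differences, numbered 1215. They made 0.147%, 0.122% and 0.159% of CX3CR1+ templates, below their shares in the CX3CR1- libraries, which ran from 0.774% to 0.851%. In CD8 TILs they made 0.373%, 0.0646% and 0.167%.

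**Figure D2:**
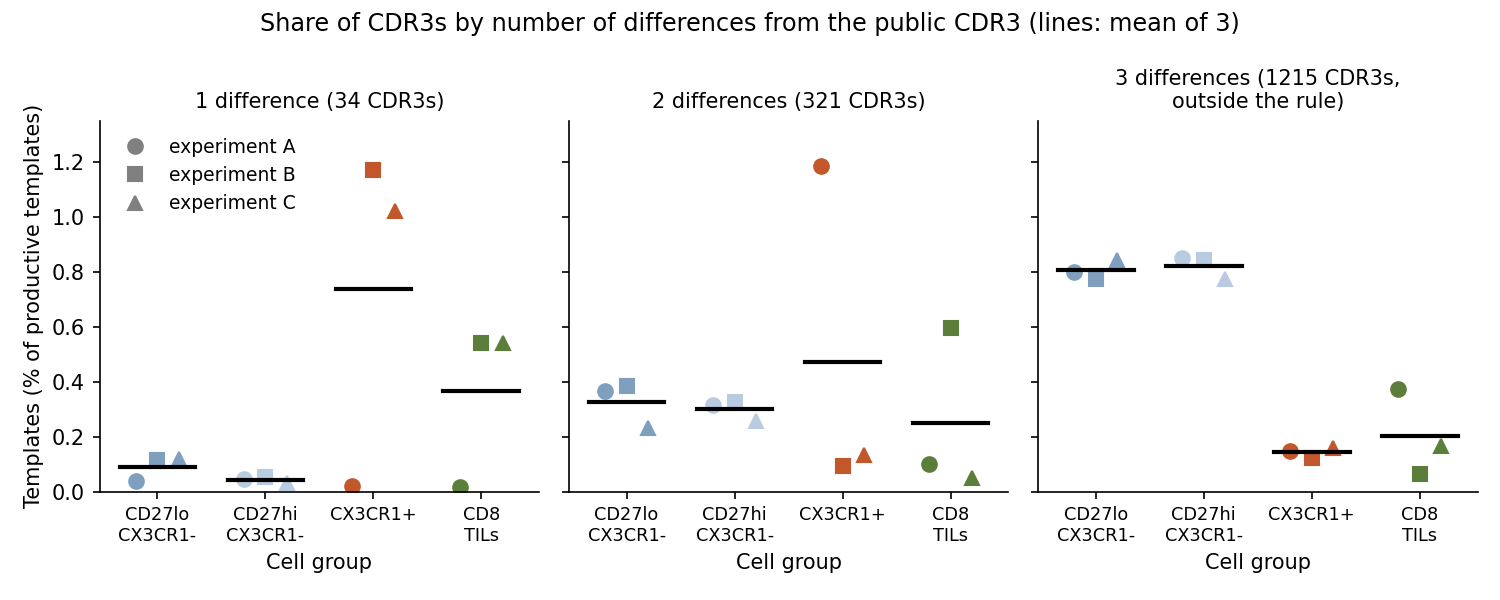
Share of productive templates (%) of CDR3s with 1, 2 or 3 differences from the reference CDR3, by cell group. Points are experiments A, B and C and lines are means of 3. The high CX3CR1+ value of experiment A stands at 2 differences, 1.19%, and those of experiments B and C at 1 difference, 1.17% and 1.02%.

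The reference CDR3 had 1385, 1215 and 2581 templates in CX3CR1+ cells, 158, 1199 and 737 in CD8 TILs, 27, 82 and 246 in CD27lo CX3CR1- cells and 32, 33 and 20 in CD27hi CX3CR1- cells. For every 100 of its templates, 48.5, 53.1 and 50.8 neighbour templates were counted in CX3CR1+ cells and 4.43, 11.8 and 16.7 in CD8 TILs. These ratios were close together in the 3 CX3CR1+ libraries although different neighbours made them up. The ratio was 609, 564 and 1030 in CD27hi CX3CR1- cells and 274, 111 and 30.9 in CD27lo CX3CR1- cells.

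The neighbours differed from the reference CDR3 mainly at positions 5 to 8, in the middle of the loop. Position 6, valine in the reference CDR3, was changed in 299 neighbours or 84.2%, with 18 different residues. Position 8 was changed in 147 neighbours, position 7 in 114 and position 5 in 99, whereas position 3 was changed in 7 and position 9 in 10. No neighbour differed at positions 1, 2, 4 or 10 to 14. Of the 34 neighbours with 1 difference, 13 differed at position 6, 11 at position 7, 9 at position 8 and 1 at position 5. Among those with 2 differences, positions 6 and 8 (106 neighbours), 6 and 7 (93) and 5 and 6 (82) were the most frequent pairs.

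Weighting by templates set CX3CR1+ cells apart from the CX3CR1- subsets at some positions. Neighbours changed at position 6 held 99.6% of neighbour templates there, against 94.7% in CD8 TILs, 90.1% in CD27lo and 89.8% in CD27hi CX3CR1- cells, as means of 3 libraries. Those changed at position 8 held 3.92% in CX3CR1+ cells and 16.3% in CD8 TILs, against 36.4% and 43.4% in the CD27lo and CD27hi CX3CR1- subsets. The leading neighbours, which keep asparagine at position 8, made up most of the CX3CR1+ values.

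**Figure D3:**
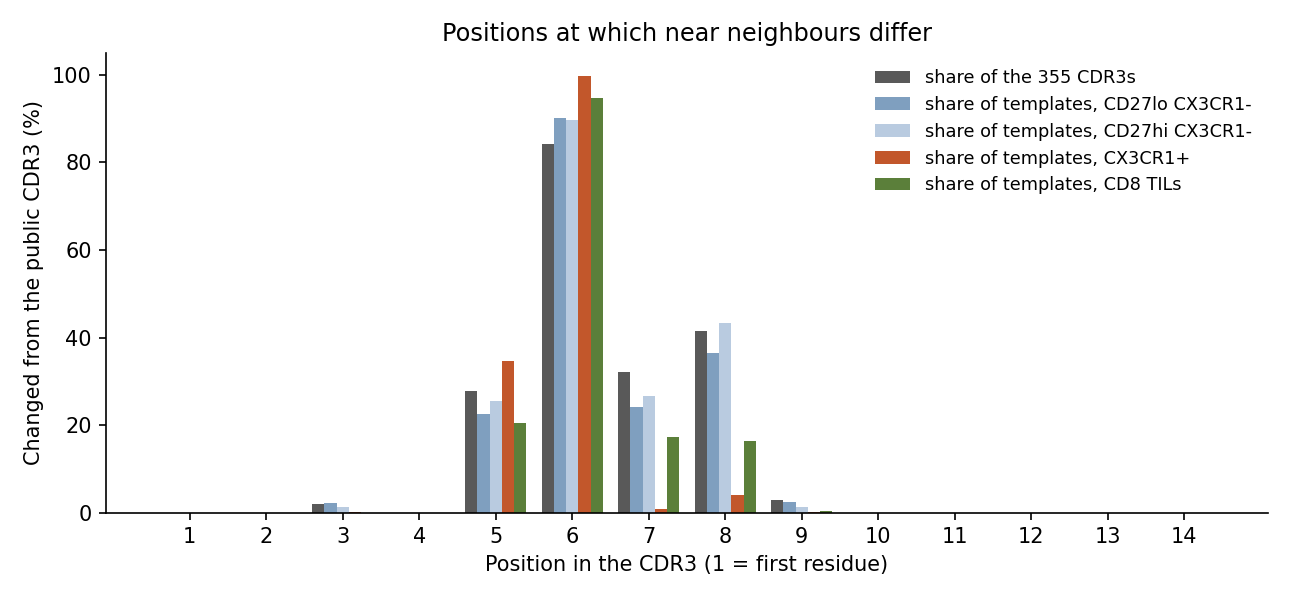
Share (%) of the 355 near neighbours (dark grey bars), and of near-neighbour templates in each cell group (mean of 3 libraries), that differ from the reference CDR3 at each position counted from the cysteine. Position 6 was changed in 84.2% of neighbours, and positions 1, 2, 4 and 10 to 14 in 0. The CD8 TIL library of experiment A had only 7 neighbour templates.

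At position 6, glycine was the most frequent replacement by number, in 40 neighbours, followed by glutamate in 34 and arginine in 29. Leucine was found in 23 neighbours, yet these held 2346 of the 3728 templates. Of the 2346, 1541 were of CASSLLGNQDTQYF, 653 of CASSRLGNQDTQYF and 71 of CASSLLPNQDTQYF, so that the V6L values mostly describe these CDR3s. Each of them was at 0 in CD8 TILs of experiment A. Neighbours with V6L made 0.865% of CX3CR1+ templates and 0.512% of CD8 TIL templates on average, against 0.0682% and 0.0352% in the CD27lo and CD27hi CX3CR1- subsets. Neighbours with V6G made 0.0234% and 0.0137% of CX3CR1+ and CD8 TIL templates, against 0.0784% and 0.0720% in the CX3CR1- subsets.

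All 355 neighbours carried the J gene TCRBJ02-05, as did the reference CDR3, whose last residues this J gene encodes. They used 18 V genes. TCRBV12-01 was found in 116 neighbours, TCRBV12-02 in 97, TCRBV03-01 in 83, TCRBV16-01 in 63 and TCRBV29-01 in 46, a neighbour being counted under each V gene it was seen with. TCRBV12-01, the V gene of the most abundant reference rearrangement, was seen in 32.7% of neighbours, against 11.2% of all CDR3s of 14 residues with this J gene. The same excess was seen for TCRBV12-02, in 27.3% against 9.07%, and for TCRBV03-01, in 23.4% against 9.41%. Neighbours also had more rearrangements each, 2.29 against 1.46, and so were counted under more V genes. By the rule they also keep most residues of the reference CDR3, 256 of them leucine at position 5. The comparison set may start otherwise, so that these shares are not like for like.

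By templates, TCRBV12-01 held 94.8%, 92.7% and 87.0% of the neighbour templates in CX3CR1+ cells of experiments A, B and C. It held 14.3%, 47.5% and 95.1% in CD8 TILs, from 26.4% to 35.1% in CD27lo CX3CR1- cells and from 20.4% to 23.1% in CD27hi CX3CR1- cells. The CX3CR1+ and CX3CR1- libraries did not overlap in this share. In CD8 TILs of experiment B, TCRBV12-02 held 49.6%, through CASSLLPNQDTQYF. Counting each rearrangement once, TCRBV12-01 made up 13.8%, 34.8% and 18.0% of the neighbour rearrangements in the same CX3CR1+ libraries, within or near the 14.8% to 29.7% of the CD27lo CX3CR1- libraries. In the CX3CR1+ libraries, 18 rearrangements with 34 templates in all shared their CDR3 nucleotides with a rearrangement of at least 10 times more templates in that library, but differed in the V gene call or in V bases before the CDR3. Whether these 18 are separate clones was not tested. No such rearrangement was found in the other 9 libraries, but the rule needs a rearrangement of at least 10 templates. The leading neighbour of the CD27hi CX3CR1- libraries had 6 to 9 templates. In experiment A it had 7 in CD27lo CX3CR1- cells and 1 in CD8 TILs. None could therefore be found in those libraries.

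**Figure D4:**
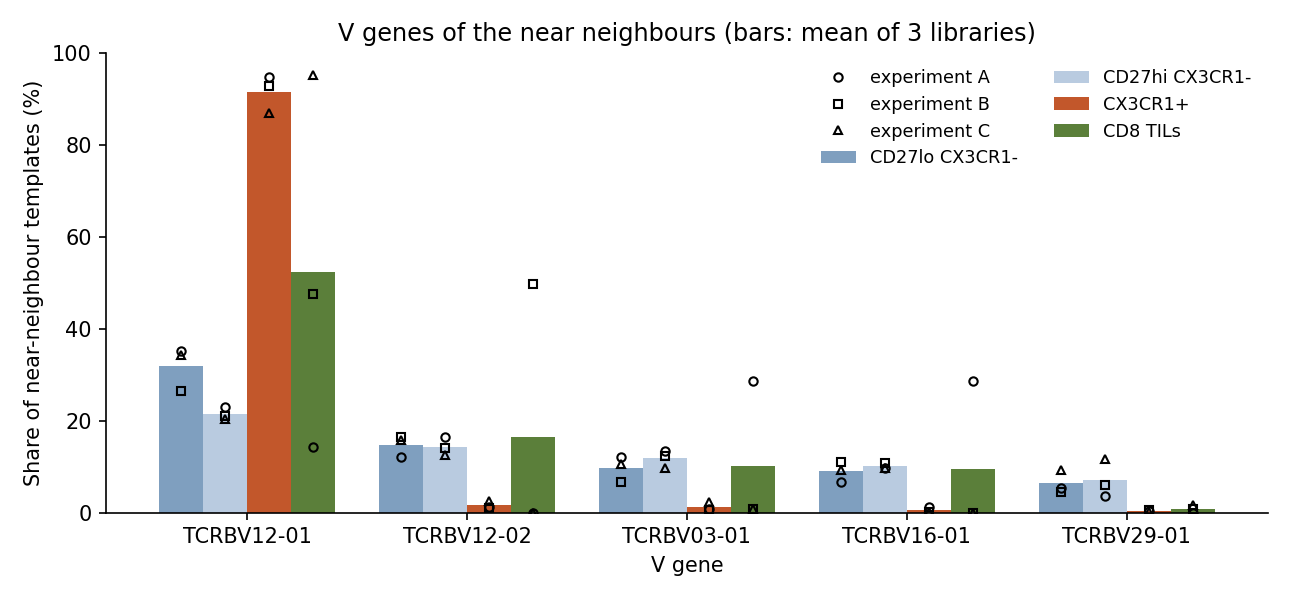
Share (%) of near-neighbour templates carried by the 5 V genes with the most neighbours, by cell group. Bars are means of 3 libraries and symbols are experiments A, B and C. TCRBV12-01 holds 87.0% to 94.8% in CX3CR1+ libraries and 20.4% to 23.1% in CD27hi CX3CR1- libraries.

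As counted at full depth, neighbours were seen in more experiments than other CDR3s of their length. Of the 355, 219 (61.7%) were found in 1 experiment, 86 (24.2%) in 2 and 50 (14.1%) in all 3, in any of the 4 cell groups. Of all CDR3s of 14 residues, 4.63% were found in all 3 experiments, and of the 2611 with the same last 6 residues 5.74%. Among neighbours with 1 difference, 8 of 34 or 23.5% were found in all 3 experiments. When every library was drawn down to the smallest depth, 2.98% of the neighbours drawn were found in all 3 experiments, with an SD of 1.50 over 100 draws. This compares with 1.62% of all CDR3s of 14 residues and 1.58% of those with the same last 6 residues. The gap was smaller than that SD, which covers only the redrawing of these libraries, so that this is no test of a difference. The 8 neighbours with 1 difference that were found in every experiment were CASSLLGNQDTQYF, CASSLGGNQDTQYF and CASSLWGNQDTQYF, whose values are given above, and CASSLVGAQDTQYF (N8A), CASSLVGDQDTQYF (N8D), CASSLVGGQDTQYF (N8G), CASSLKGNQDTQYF (V6K) and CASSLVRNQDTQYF (G7R). The last 5 were at 0 in each CX3CR1+ and CD8 TIL library and had 1 or 2 templates in each CD27hi CX3CR1- library.

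**Figure D5:**
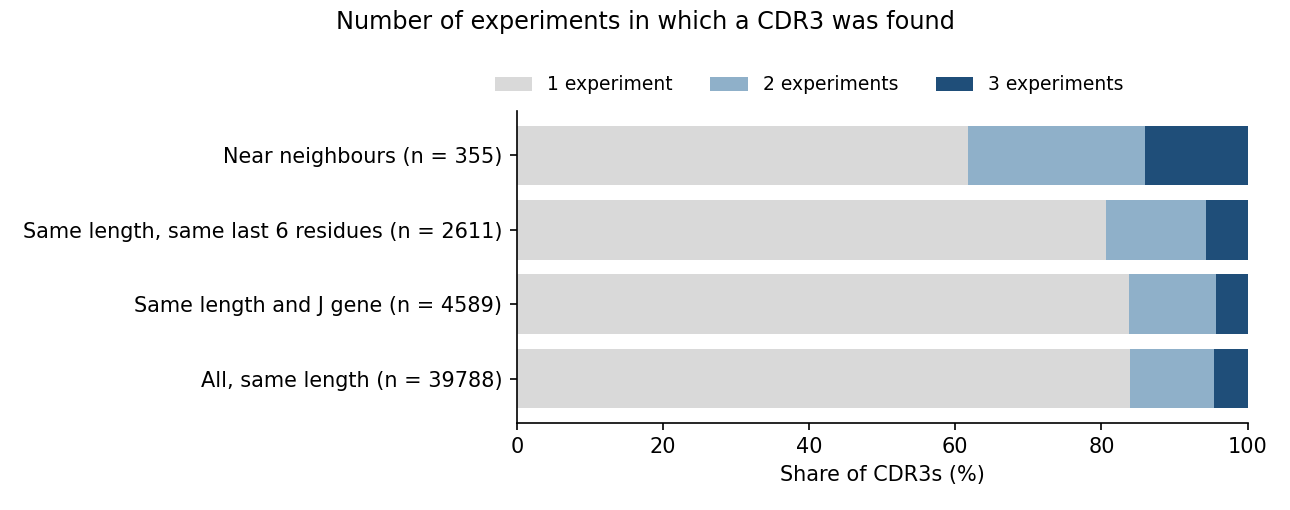
Share (%) of CDR3s found in 1, 2 or 3 experiments, for near neighbours, for CDR3s of 14 residues with the same last 6 residues, for those with the same J gene, and for all CDR3s of 14 residues. All 3 experiments held 14.1% of the near neighbours and 4.63% of all CDR3s of that length.

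Within single cell groups, most of this sharing was seen in CD27hi CX3CR1- cells, which also had the most neighbours. In CD27hi CX3CR1- cells, 30 of 283 neighbours were found in all 3 experiments at full depth, or 10.6% against 3.84% of all CDR3s of 14 residues. Counts by group were not made at equal depth, where over all groups the values were 2.98% against 1.62%. In CX3CR1+ cells 1 of 67 neighbours was, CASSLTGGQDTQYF, or 1.49% against 1.02%. In CD27lo CX3CR1- cells it was 1 of 141, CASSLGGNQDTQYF, or 0.709% against 1.36%, and in CD8 TILs 0 of 21 against 0.708%. Each of these counts is 1 or 0, so that no difference from other CDR3s of that length was detectable. There were 170 neighbours, 47.9%, found in CD27hi CX3CR1- cells only, against 60.1% of CDR3s of 14 residues. CX3CR1+ cells and CD8 TILs had 8 neighbours in common, and 4 were found in all 4 cell groups, namely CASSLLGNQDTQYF, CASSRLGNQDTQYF, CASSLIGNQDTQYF and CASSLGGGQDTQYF. Of the 39788 CDR3s of 14 residues, 671 and 268 were shared in these ways.

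Sharing of AA sequences rested mostly on different nucleotide rearrangements. Of the 814 neighbour rearrangements, 786 were found in 1 experiment, 26 in 2 and 2 in all 3. Those 2, named after their values were seen, encode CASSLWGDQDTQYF and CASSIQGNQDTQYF and had 3 templates each over the series. A neighbour had 2.29 rearrangements on average over the series, against 1.48 for CDR3s of 14 residues, and 46.2% had several, against 20.1%. Neighbour rearrangements carried fewer inserted nucleotides, 2.47 on average per library with an SD of 0.494 over the 12 libraries, against 3.32 with an SD of 0.0717 for all CDR3s of 14 residues. The lowest value among the libraries for all CDR3s of that length was 3.14, and the highest for neighbours 3.57, in CD8 TILs, so that the ranges overlapped.

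Other CDR3s that recur have many neighbours too. The 2611 CDR3s of 14 residues with the same last 6 residues had a median of 118 near neighbours in these libraries, and 2.11% of them had at least the 355 of the reference CDR3. Among the 150 of these that were found in all 3 experiments the median was 267.5, and 20.7% had at least 355.

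In experiments B and C, the neighbour templates of CD8 TILs were mostly of rearrangements that CX3CR1+ cells also held, as were CD8 TIL templates in general. In experiment B, 3 of 7 neighbour rearrangements in CD8 TILs, with 95.7% of the templates, were found in CX3CR1+ cells, and in experiment C 4 of 12, with 92.7%. In experiment A none of 7, each with 1 template, was found in any splenic subset. CD27lo CX3CR1- cells held rearrangements with 10.6% and 75.6% of the neighbour templates of CD8 TILs in experiments B and C, and CD27hi CX3CR1- cells 36.9% and 17.9%. For all productive rearrangements of CD8 TILs the template shares found in CX3CR1+ cells were 63.9%, 85.6% and 85.8% in experiments A, B and C. By number, 38.1% and 46.4% of all these rearrangements were found in CX3CR1+ cells in experiments B and C. The template shares of all of them in those experiments were 51.4% and 60.9% in CD27lo and 55.3% and 51.4% in CD27hi CX3CR1- cells.

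Few neighbour rearrangements were close at the nucleotide level to an abundant rearrangement of the reference CDR3. Of the 875 neighbour rearrangements summed over libraries, 4 differed at 1 nucleotide of the CDR3 from a reference rearrangement in the same library. They encode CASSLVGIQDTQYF, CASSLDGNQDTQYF, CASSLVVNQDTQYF and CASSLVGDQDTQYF, had 1 or 2 templates each, and are named here after their values were seen. Only for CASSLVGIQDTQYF, with a single template in CD27lo CX3CR1- cells of experiment B, did the reference rearrangement have at least 10 times as many templates, 15.

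Neighbours were also tested singly, with edgeR's quasi-likelihood test fitted over all CDR3s with at least 10 templates that were found in at least 2 experiments, with experiment as a block. This left 2811 CDR3s, among them 14 of the 355 neighbours, which had to be abundant somewhere to be included. Against the CX3CR1- subsets, 0 of the 14 were called in CX3CR1+ cells at an adjusted p under 0.05, where 0.107% of all CDR3s tested were called. In CD8 TILs against the CX3CR1- subsets 0 were called, beside 0.356% of all, and in CD8 TILs against CX3CR1+ cells 0, beside 0% of all. At an unadjusted p under 0.05, edgeR gave 5, 1 and 0 of the 14 in these comparisons, and 433, 99 and 42 of the 2811. DESeq2 called 1, 0 and 0 of the 14 and 40, 37 and 74 of the 2811. The comparisons with the CX3CR1- subsets share those libraries. The median log2 fold change of the 14 was -0.10, -1.37 and -2.03, beside -1.49, -3.29 and -1.32 over all CDR3s tested. Some of the 14 passed the filter only through CX3CR1+ cells, where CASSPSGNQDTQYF had 77 of its 80 templates. These medians are therefore no test of a shift of the neighbours.

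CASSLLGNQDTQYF had a log2 fold change of 4.20 ± 1.83 (SE) in CX3CR1+ cells against the CX3CR1- subsets, which missed the threshold in edgeR (adjusted p = 0.313). The log2 fold change was 5.63 without experiment A, 2.86 without B and 3.26 without C, with edgeR adjusted p from 0.541 to 0.671. DESeq2 called it, with a log2 fold change of 5.11 and an adjusted p of 0.0182, but gave 10 of the 14 neighbours no adjusted p in this comparison. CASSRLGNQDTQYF had a log2 fold change of 4.13 ± 1.81 (SE) in the same comparison, with an adjusted p of 0.313 in edgeR and 0.110 in DESeq2, and from 3.12 to 4.75 with 1 experiment left out. In the other direction, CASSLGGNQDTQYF, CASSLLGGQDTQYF and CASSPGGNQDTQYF had log2 fold changes of -4.76, -4.36 and -4.10, each with an adjusted p of 0.313 in edgeR, the last being named after its values were seen. All 3 were at 0 in each CX3CR1+ library, so that these fitted values depend on the fit and are no bound. In CD8 TILs against the CX3CR1- subsets, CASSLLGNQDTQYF had a log2 fold change of 3.95 ± 1.80 (SE; edgeR adjusted p = 0.590), and from 2.36 without experiment B to 5.24 without experiment A. The spread between libraries was large, with a biological coefficient of variation of 1.25 over the CDR3s tested. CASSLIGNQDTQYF and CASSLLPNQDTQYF, found in 1 experiment each, were not tested.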

How the data were processed

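The authors made ImmunoSEQ libraries (survey level) of rearranged TCRβ genes from genomic DNA, read them on an Illumina NextSeq instrument and used the ImmunoSEQ platform to process the reads. The deposited values are template counts per nucleotide rearrangement, whole numbers without normalization. CDR3 AA sequences, V and J gene names and numbers of inserted nucleotides were used as deposited by the authors, the last being annotation values of unit "other". The deposited files give no coordinates, and the submitters' processing notes name mm10. The aligner is not given in the sources used here.

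The nucleotide sequence of 1 rearrangement is not reported here. Productive rearrangements were kept and their templates summed per CDR3 AA sequence in each of the 12 libraries. Productive templates ranged from 5893 to 113660 per library. Shares are percent of productive templates of a library, with Wilson 95% confidence intervals, and 3 templates were taken as the limit that a count of 0 allows. Intervals and limits cover counting error only. The members, lists and tests were chosen with earlier results of these data known. CDR3s named are the 10 neighbours highest on average over all libraries, the 6 highest in CD8 TILs (ties in order of the overall mean) and the 6 highest in CX3CR1+ cells, and every neighbour with 1 difference found in all 3 experiments. V genes named are the 5 with the most neighbours.

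Single CDR3s were tested with edgeR 4.0.16 (quasi-likelihood, library size set to productive templates, Benjamini-Hochberg over all CDR3s tested, threshold 0.05), with all 12 libraries in a single fit and experiment as a block. The experiment code in the sample titles pairs the libraries. Deviations from group means correlated on average by 0.144 (0.0141 to 0.491, 18 pairs) within experiments and by -0.0717 between experiments (36 pairs). Because deviations sum to 0 in each group, the second value largely follows from the first and is no separate evidence of pairing. Each library is a pool of the mice of its experiment, so that n counts experiments and p-values measure the spread between these libraries. DESeq2 1.42.0, TMM scaling, other filters, fits without the block and without each experiment were alternatives. Scripts were tested on simulated data. There the edgeR fit called 20% of CDR3s raised 16-fold in CX3CR1+ cells and 98% of those raised 1024-fold. A neighbour that was not called may therefore still differ by the smaller amount. Python 3.11.15, pandas 2.3.3 and R 4.3.3 were used.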

Additional observations from a re-analysis of the deposited data

How the results depend on the processing

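The higher neighbour share of CX3CR1+ cells over the CX3CR1- subsets, 0.828 percentage points, had a mean above 0 under 6 other ways of counting: 0.670 with 1 difference only (SD 0.603, above 0 in 2 of 3 experiments), 0.158 with 2 differences only (SD 0.599, in 1 of 3), 1.10 without single-template rearrangements, 0.581 as percent of all templates, 0.828 without 1-nucleotide relatives of the reference CDR3 and 1.00 with only the V and J genes of its main rearrangement. Single templates made up 91.7% to 92.6% of neighbour rearrangements in CD27lo and 94.3% to 95.4% in CD27hi CX3CR1- libraries. Leaving them out lowered mainly the CX3CR1- shares, so that the rise to 1.10 is no separate support. Among alternatives chosen after seeing the data, the difference was 0.814 without rearrangements that repeat the CDR3 nucleotides of a larger one. It turned to -0.0894 (SD 0.190, above 0 in 1 of 3) without the leading neighbour of each library. The difference of CD8 TILs from the CX3CR1- subsets turned to -0.0642 with 2 differences only and to -0.0937 without the leading neighbours, and their difference from CX3CR1+ cells became -0.00430 without the leading neighbours. Leaving out 1 experiment gave 0.824 to 0.830, 0.00208 to 0.483 and -0.827 to -0.347 for the 3 differences. Neighbours found in all 3 experiments were 6.00% without single templates, 23.5% with 1 difference only and 2.98% at equal depth. Neighbours per library at equal depth averaged 19.8 in CD27lo and 19.0 in CD27hi CX3CR1- cells and 5.67 in CX3CR1+ cells, against 53.7, 134 and 26.0 as counted, so that depth limits these numbers.

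CDR3s called by edgeR in CX3CR1+ cells and in CD8 TILs against the CX3CR1- subsets, 3 and 10, were 8 and 5 with TMM, 0 and 0 with no filter on low counts, 4 and 16 with at least 30 templates, and 1 and 8 with single templates set to 0. DESeq2 called 40 and 37, and 74 in CD8 TILs against CX3CR1+ cells, where the edgeR fits called 0. With no replicate block for the pairing by experiment, 0 and 0 were called. Leaving out 1 experiment gave 0 to 5 and 3 to 8. The neighbours called remained 0 in each of these edgeR fits, and 1 was called by DESeq2 in the first comparison, where 10 of the 14 had no adjusted p. The cause of these changes was not tested.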
